A study of Mus musculus with 9 samples.

Results

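ELK1, ELK3, ELK4, ELF1, ELF2, ELF4, ETV3, ETV6 and GABPA are transcription factors of the ETS family, proteins that share a DNA-binding domain recognising sequences around the core GGAA. Their 9 genes were found by name among the 55536 genes of the count table, each in 1 row. All 9 were also among the 12849 genes that passed the filter on low counts. RNA from mouse spleen B cells labelled pre-GC, a stage named as preceding the germinal centre, was sequenced in 5 libraries of genotype p52Ki and 4 of genotype WT. The p52Ki titles carry the notation ki/ki, for a knock-in on both alleles. The protein p52 is the NF-kB subunit made from Nfkb2, and the series title couples it with the ETS factor ETS1. How the knock-in was made, the age of the mice, any immunisation and the sorting gates are stated nowhere in the labels, and neither is whether each library came from its own mouse. The p-values therefore measure the spread between these libraries, which may be partly technical.

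ELK1, ELK3 and ELK4 are the ternary complex factors. They sit beside serum response factor, SRF, on the promoters of early response genes, and the kinase ERK activates them by phosphorylation. ELF1, ELF2 and ELF4 form a second branch, which is expressed in lymphocytes. In mouse T cells ELF4 is known to restrain proliferation. ETV3 and ETV6 are mainly repressors, and GABPA is the DNA-binding subunit of GABP, which acts on many housekeeping and mitochondrial genes together with a beta subunit. In B cells these factors share sites with ETS1, PU.1 (Spi1) and SPIB, so the level of each against the others is of interest.

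Libraries held 4492160 to 6647650 gene counts each in p52Ki and 7368604 to 7937579 in WT. Between 15504 and 16634 genes had a count in p52Ki libraries, against 14033 to 14793 in WT libraries. The 7 B cell markers, Ms4a1 and Cd79a among them, summed to 11300 to 14800 CPM in p52Ki (counts scaled to each library's TMM-adjusted size) and to 9920 to 11100 CPM in WT. Germinal centre markers (7 genes) summed to 524 to 1230 CPM in p52Ki against 2130 to 2840 CPM in WT, and markers of dividing cells (8 genes) to 1250 to 3090 against 4320 to 5230 CPM. Follicular B cell markers (6 genes) summed to 1310 to 1940 CPM in p52Ki against 592 to 819 CPM in WT. Of the 6, 5 rose, while Fcer2a, the largest part of the WT sum, did not. Fcer2a stood at 357 ± 96.5 CPM in p52Ki and 428 ± 88.0 CPM in WT (log2 fold change -0.26, edgeR adjusted p = 0.551). These marker sums moved with genotype beside every result that follows, and their part in those results was not tested. In bulk RNA, fewer cells of a type and less RNA per cell cannot be told apart. Markers of other spleen cells were measured in the same way. The 7 T cell markers summed to 76.9 to 202 CPM in p52Ki and 187 to 256 CPM in WT, most of it Lck, and the 5 macrophage and monocyte markers to 63.3 to 142 and 30.1 to 79.2 CPM. Dendritic cell markers (3 genes, mostly Flt3, which fell) summed to 10.5 to 37.1 CPM in p52Ki and 44.5 to 66.4 CPM in WT, and stromal and endothelial markers (5 genes, mostly Pecam1, which rose) to 114 to 265 and 39.2 to 107 CPM. Plasma cell markers (4 genes) summed to 674 to 1260 CPM in p52Ki and 1440 to 1890 CPM in WT. Most of that sum was Jchain, which fell (562.2 ± 202 CPM in p52Ki and 1252 ± 194 CPM in WT), while Sdc1 stood at 22.0 ± 11.5 and 1.21 ± 2.42 CPM without passing (edgeR adjusted p = 0.0762). The neutrophil genes S100a8 and S100a9 and the stromal genes Col1a1 and Col1a2 had no count in any library.

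Of the 9 factors, 1 rose in p52Ki and 0 fell (edgeR quasi-likelihood test, Benjamini-Hochberg adjusted p under 0.05). The gene that rose was Elk4. It was also the single member that DESeq2 called and the single one with an unadjusted p under 0.05, which 21.4% of all genes had. Over all 12849 genes, 8.53% were called. Those higher in p52Ki made up 4.49% of all genes tested and those lower 4.04%. A count of 1 in 9 is close to that background. The median log2 fold change of the 9 was 0.25, against 0.03 for all genes tested, with 5 members above 0 and 4 below.

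**Figure D1:**
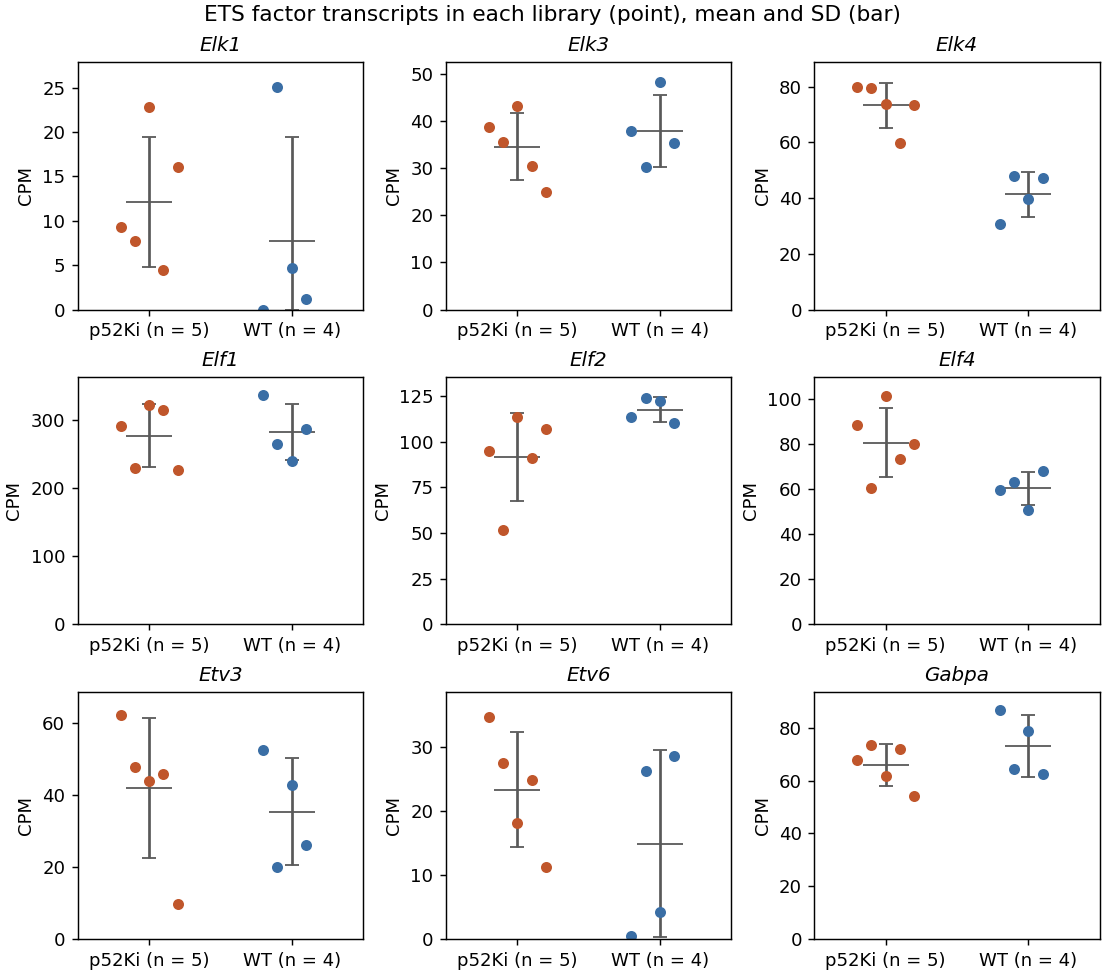
Level of each ETS factor gene in CPM (vertical axes, each starting at 0) in the 5 p52Ki and 4 WT libraries. Points are libraries, and bars are the mean and SD, with the lower arm drawn no further than 0. Elk4 is the only panel of the 9 in which the genotypes do not overlap, and Elk1 and Etv6 spread widely within WT.

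Elk4, also called SAP-1, lies on chromosome 1 (GRCm38, 132007607 to 132032612, plus strand). It stood at 79.7, 79.4, 73.8, 59.9 and 73.4 CPM in p52Ki replicates 1 to 5, against 30.6, 48.0, 39.5 and 47.4 CPM in WT replicates 1 to 4. Every p52Ki library lay above every WT library, a separation seen in that direction for 7.3% of all genes tested and in the opposite direction for 6.53%. Elk4 averaged 73.2 ± 8.02 CPM in p52Ki and 41.4 ± 8.16 CPM in WT (SD, n = 5 and 4). Its log2 fold change was 0.82 ± 0.21 (SE, 95% interval 0.37 to 1.28), a 1.77-fold difference with an edgeR adjusted p of 0.0316. The direction held in each of the 18 alternative fits, from 0.70 to 0.92. The call did not hold without any one of WT replicates 1 and 3 or p52Ki replicates 1, 2, 3 and 5, when the adjusted p lay between 0.0536 and 0.0767. Nor did the call hold in the fit with the replicate number of the titles as a block (adjusted p = 0.145).

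**Figure D2:**
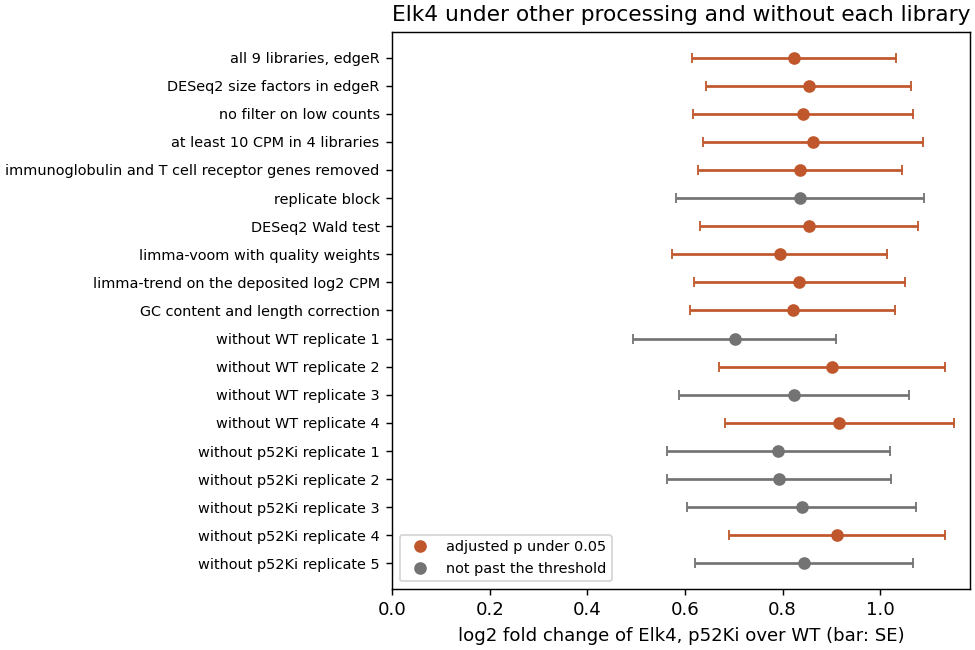
Log2 fold change of Elk4, p52Ki over WT (horizontal axis), with its SE, in the analysis of all 9 libraries and in 18 alternatives, including each library left out. All points lie between 0.70 and 0.92, and orange marks those with an adjusted p under 0.05.

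Elk3, also called NET, which represses its targets until it is phosphorylated, lies on chromosome 10 (93247414 to 93311135, minus strand). It stood at 38.6, 35.6, 43.1, 30.5 and 25.0 CPM in p52Ki replicates 1 to 5, against 37.9, 30.2, 48.4 and 35.3 CPM in WT replicates 1 to 4. The genotypes overlapped through most of their range. Elk3 had a log2 fold change of -0.13 ± 0.26 (95% interval -0.69 to 0.43, edgeR adjusted p = 0.842), and it was 0.03 without WT replicate 3.

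Elk1, the founding ternary complex factor (chromosome X, 20933395 to 20950608, minus strand), was the lowest and most uneven of the 9. It had 64, 44, 141, 29 and 74 counts in p52Ki replicates 1 to 5, against 0, 181, 33 and 9 counts in WT replicates 1 to 4. In CPM this was 4.44 to 22.8 in p52Ki and 0 to 25.0 in WT, where a count of 0 in WT replicate 1 allows up to 0.394 CPM (3 counts, counting error only). The highest and the lowest library of all 9 were both WT. For Elk1 the log2 fold change was 0.64 ± 1.10 (95% interval -1.76 to 3.04, edgeR adjusted p = 0.815). It was 2.61 without WT replicate 2 and 0.22 without WT replicate 1, and passed in neither case (edgeR adjusted p = 0.210 and 0.943).

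The difference between Elk4 and Elk3 was tested within each library, as the log2 ratio of their counts, which needs no scaling between libraries. Since Elk4 alone was called (log2 fold change 0.82) and Elk3 differed little (-0.13), this ratio is no separate finding. All 7 pairs tested were chosen with earlier results of these data known. The ratio Elk4/Elk3 was 1.04, 1.15, 0.77, 0.97 and 1.55 in p52Ki replicates 1 to 5, against -0.31, 0.67, -0.29 and 0.42 in WT replicates 1 to 4. Elk4 thus had more counts than Elk3 in every p52Ki library, and in WT the order varied. The mean ratio was higher in p52Ki by 0.98 on the log2 scale (1.10 ± 0.29 against 0.12 ± 0.50, SD, n = 5 and 4, exact two-sided permutation p = 0.00794, the smallest this design can give, and 0.0278 after Benjamini-Hochberg adjustment over 7 ratios). Per kilobase of annotated exon, Elk4 made up 54.1% ± 4.86 of the summed ELK level in p52Ki libraries and 39.8% ± 5.89 in WT libraries, and Elk3 35.7% ± 4.73 and 52.4% ± 12.7. Both shares overlapped between genotypes. That of Elk4 ran from 45.7% to 57.5% in p52Ki and from 34.9% to 48.1% in WT. That of Elk3 ran from 27.5% to 39.7% and from 35.3% to 63.6%, and the WT share of Elk1 from 0% to 24.8%. The ratios of Elk4 and of Elk3 to Elk1 did not pass (exact permutation p = 0.349 and 0.127, adjusted 0.357 and 0.189), although Elk3/Elk1 did without WT replicate 2 (difference -4.07, exact permutation p = 0.0179, adjusted 0.0417).

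**Figure D3:**
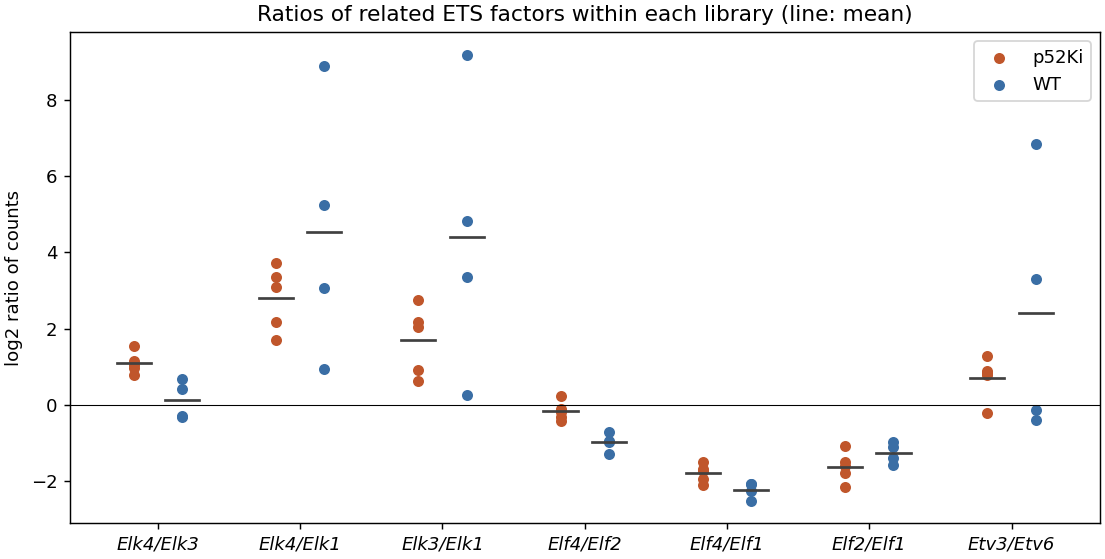
Log2 ratio of the counts of related ETS factors within each library (vertical axis), for 7 pairs (horizontal axis). Points are the p52Ki and WT libraries, and lines are the means. The genotypes are apart in Elk4/Elk3, from 0.77 to 1.55 in p52Ki and -0.31 to 0.67 in WT, and in Elf4/Elf2, while the pairs with Elk1 or Etv6 span several log2 units in WT.

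The promoters of these pairs are shown because Elk4 and Elk3, and likewise Elf4 and Elf2, differed from each other between genotypes. Each window is from RefSeq on GRCm38.p6, runs 5′ to 3′ on the gene's strand, and spans 250 bases before to 50 bases after an annotated start. Capitals mark CCGGAAGT, a strong ETS sequence, or the shorter CGGAAG that lies within it, on either strand (CTTCCG on the other). The first listed window is shown for each gene, and for Elf2 the second as well, since all its matches lie there. For Elk4 it is chr1:132007370-132007669, plus strand, and for Elk3 chr10:93311110-93311409, minus strand. For Elf4 it is chrX:48463083-48463382, minus strand. The Elf2 windows are chr3:51340595-51340894 and chr3:51277465-51277764, minus strand.
Elk4: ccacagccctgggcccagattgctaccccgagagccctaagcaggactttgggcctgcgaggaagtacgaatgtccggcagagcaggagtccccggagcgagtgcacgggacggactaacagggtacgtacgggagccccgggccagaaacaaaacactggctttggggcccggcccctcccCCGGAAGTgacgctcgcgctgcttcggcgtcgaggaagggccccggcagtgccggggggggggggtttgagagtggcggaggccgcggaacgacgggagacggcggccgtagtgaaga
Elk3: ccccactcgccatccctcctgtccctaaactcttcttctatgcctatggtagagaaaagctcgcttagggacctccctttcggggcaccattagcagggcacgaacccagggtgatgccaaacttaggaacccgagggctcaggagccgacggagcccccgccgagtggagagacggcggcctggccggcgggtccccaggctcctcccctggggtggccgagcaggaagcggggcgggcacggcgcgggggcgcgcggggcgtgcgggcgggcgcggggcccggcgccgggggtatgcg
Elf4: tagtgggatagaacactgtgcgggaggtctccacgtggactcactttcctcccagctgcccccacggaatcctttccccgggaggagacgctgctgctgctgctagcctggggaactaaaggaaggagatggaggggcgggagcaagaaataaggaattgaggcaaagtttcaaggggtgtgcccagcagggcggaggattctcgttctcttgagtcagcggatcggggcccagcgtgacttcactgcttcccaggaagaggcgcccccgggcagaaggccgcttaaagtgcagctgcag
Elf2, first window: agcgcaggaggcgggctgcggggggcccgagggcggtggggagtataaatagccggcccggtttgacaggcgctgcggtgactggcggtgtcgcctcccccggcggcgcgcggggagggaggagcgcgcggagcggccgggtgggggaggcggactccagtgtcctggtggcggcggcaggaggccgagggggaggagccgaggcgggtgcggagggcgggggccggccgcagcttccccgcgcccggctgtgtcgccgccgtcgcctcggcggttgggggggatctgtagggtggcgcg
Elf2, second window: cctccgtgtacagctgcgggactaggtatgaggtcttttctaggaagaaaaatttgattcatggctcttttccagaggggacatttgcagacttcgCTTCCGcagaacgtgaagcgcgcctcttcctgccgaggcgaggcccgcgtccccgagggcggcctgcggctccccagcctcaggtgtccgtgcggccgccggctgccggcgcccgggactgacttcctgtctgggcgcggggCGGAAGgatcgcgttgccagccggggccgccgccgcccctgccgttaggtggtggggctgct

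CCGGAAGT occurred in the first Elk4 window, with its first base 68 bases before the start, and in no other of the 14 windows of the 9 genes. Of 27025 genes with such windows, 4.31% held it. The shorter CGGAAG occurred in windows of 4 of the 9 genes, which were Elk4, Elf2, Etv3 and Gabpa, against 18.8% of all genes. The shares of all genes include genes too low to be tested here, and some of the 9 have several windows. They are therefore no matched background. The first Elf2 window held none and the second held 2. The third Elk4 window, which is not shown, held 1. Neither the CArG box, the site of SRF, nor the kappa-B site of NF-kB was matched in any of the 14 windows, against 1.81% and 5.14% of all genes. These matches describe letters in the windows and do not show binding.

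Elf1 (chromosome 14, 79481194 to 79582494, plus strand) was the most abundant of the 9, with the smallest difference between genotypes. It stood at 290, 229, 322, 315 and 227 CPM in p52Ki replicates 1 to 5, against 337, 264, 239 and 287 CPM in WT replicates 1 to 4. The libraries of both genotypes were interleaved. Elf1 had a log2 fold change of -0.03 ± 0.16 (95% interval -0.38 to 0.32, edgeR adjusted p = 0.955), so that a rise over 0.32 or a fall over 0.38 lies outside the interval. Its sign turned in 7 of the 18 alternatives.

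Elf2, also called NERF (chromosome 3, 51252720 to 51340663, minus strand), stood at 94.95, 51.5, 113.7, 91.2 and 107.3 CPM in p52Ki replicates 1 to 5, against 113.5, 124, 122.6 and 110.4 CPM in WT replicates 1 to 4. Of the 5 p52Ki libraries, 4 lay below every WT library, and replicate 3 lay within the WT range. Elf2 differed by a log2 fold change of -0.36 ± 0.22 (95% interval -0.83 to 0.11, edgeR adjusted p = 0.382). Elf4, also called MEF (chromosome X, 48411046 to 48463132, minus strand), stood at 88.1, 60.1, 100.9, 73.2 and 79.95 CPM in p52Ki replicates 1 to 5, against 59.3, 63.2, 50.6 and 68.0 CPM in WT replicates 1 to 4. Again 4 of the 5 p52Ki libraries lay beyond every WT library, here above, with replicate 2 inside the WT range. Elf4 differed by a log2 fold change of 0.42 ± 0.20 (95% interval -0.02 to 0.85, edgeR adjusted p = 0.255).

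Although neither gene passed alone, their ratio separated the genotypes. Since Elf4 differed by 0.42 and Elf2 by -0.36, and the pair was chosen with earlier results known, this ratio is no separate finding either. Of single genes tested, 13.8% separated in either direction, and the share for ratios of other gene pairs was not measured. Elf4/Elf2 was -0.11, 0.22, -0.17, -0.32 and -0.42 on the log2 scale in p52Ki replicates 1 to 5, against -0.94, -0.97, -1.28 and -0.70 in WT replicates 1 to 4. Elf4 counts were thus closer to those of Elf2 in every p52Ki library than in any WT library. The mean ratio was higher in p52Ki by 0.81 (-0.16 ± 0.25 against -0.97 ± 0.24, SD, n = 5 and 4, exact two-sided permutation p = 0.00794, adjusted 0.0278). Elf4/Elf1 was higher in p52Ki by 0.44 and did not pass after adjustment (-1.79 ± 0.23 against -2.22 ± 0.21, exact permutation p = 0.0317, adjusted 0.0741), nor did Elf2/Elf1 (difference -0.38, exact permutation p = 0.135, adjusted 0.189). Per kilobase, Elf4 was 20.5% ± 1.95 of the summed ELF level in p52Ki and 15.4% ± 1.62 in WT, and Elf2 14.9% ± 3.05 and 19.4% ± 2.77, while the sum itself was 63.7 ± 10.4 and 63.9 ± 6.2 CPM per kilobase. With 1 library left out, the Elk4/Elk3 difference stayed between 0.83 and 1.16 and the Elf4/Elf2 difference between 0.71 and 0.90. Both still passed without WT replicate 2 (adjusted exact permutation p = 0.0417), and neither did without any other library (adjusted 0.0625 to 0.1). Exact tests on 8 libraries reach no lower than 0.0179 without a WT library and 0.0286 without a p52Ki library before adjustment over the 7 ratios.

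Etv3, a repressor linked to growth arrest in mouse macrophages (chromosome 3, 87525407 to 87540156, plus strand), stood at 62.3, 47.8, 43.9, 46.0 and 9.78 CPM in p52Ki replicates 1 to 5, against 52.5, 20.1, 42.8 and 26.2 CPM in WT replicates 1 to 4. The lowest library was p52Ki replicate 5, with 45 counts. Etv3 differed by a log2 fold change of 0.25 ± 0.46 (95% interval -0.75 to 1.24, edgeR adjusted p = 0.831). Etv6, also called TEL, a repressor needed by blood stem cells in mouse bone marrow (chromosome 6, 134035700 to 134270158, plus strand), stood at 34.7, 27.5, 18.1, 24.8 and 11.3 CPM in p52Ki replicates 1 to 5, against 0.394, 26.3, 4.27 and 28.5 CPM in WT replicates 1 to 4. WT libraries fell into a low pair (3 and 30 counts) and a high pair (190 and 215 counts), and 3 of the 5 p52Ki libraries lay between those pairs. Etv6 had a log2 fold change of 0.65 ± 0.82 (95% interval -1.14 to 2.43, edgeR adjusted p = 0.733). The ratio Etv3/Etv6 did not pass either (0.72 ± 0.55 in p52Ki against 2.41 ± 3.40 in WT, exact permutation p = 0.357, adjusted 0.357).

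Gabpa (chromosome 16, 84834925 to 84863779, plus strand) stood at 67.9, 73.4, 61.9, 71.9 and 54.1 CPM in p52Ki replicates 1 to 5, against 86.8, 64.3, 78.9 and 62.4 CPM in WT replicates 1 to 4. The genotypes overlapped, with the highest 2 libraries in WT. Gabpa had a log2 fold change of -0.15 ± 0.19 (95% interval -0.56 to 0.26, edgeR adjusted p = 0.729). Its beta subunit genes Gabpb1 and Gabpb2 stood at 61.0 ± 12.9 and 96.7 ± 13.3 CPM in p52Ki against 71.7 ± 13.0 and 90.8 ± 37.4 CPM in WT, neither of them called (edgeR adjusted p = 0.627 and 0.900).

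**Figure D4:**
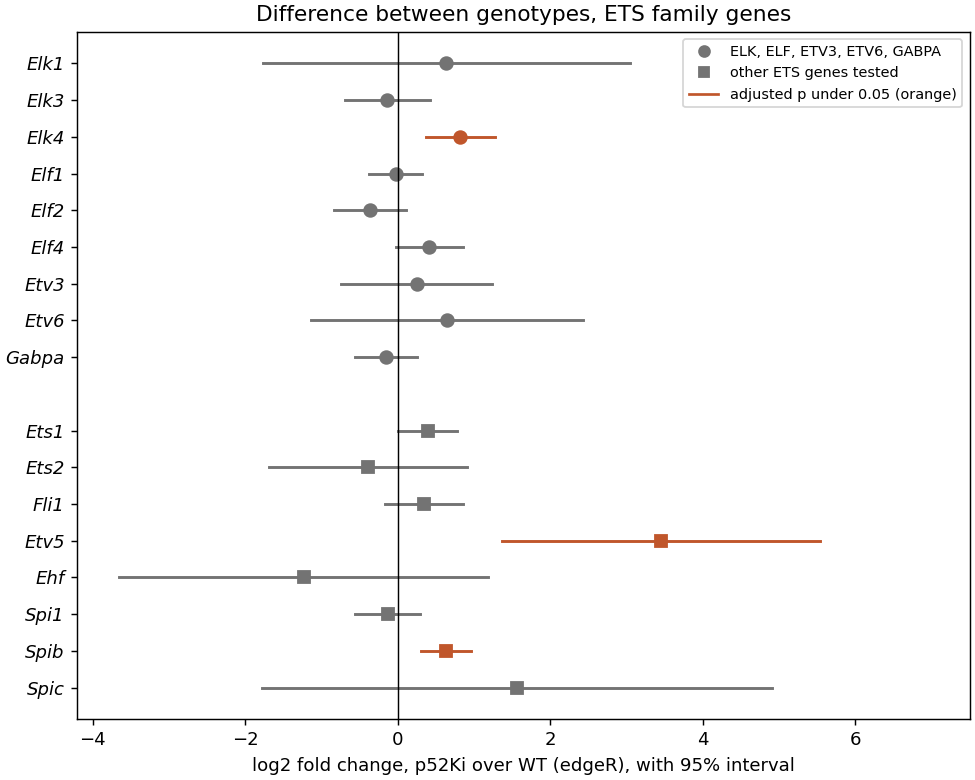
Log2 fold change, p52Ki over WT, with its 95% interval (horizontal axis) for the 9 ETS factors (circles) and the 8 other ETS genes that could be tested (squares). Elk4, Etv5 and Spib (orange) passed the threshold, and the intervals of Elk1 and Etv6 are the widest of the 9.

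The precision of these values differed between the genes. The biological coefficient of variation, the spread between libraries of a genotype beyond counting error, was 0.191 for Elf1 and between 0.218 and 0.292 for Gabpa, Elf4, Elk4, Elf2 and Elk3. It was 0.477 for Etv3, 0.821 for Etv6 and 1.09 for Elk1. Against genes within 0.5 log2 CPM of the same mean level, that of Gabpa was higher than in 5.69% of them and that of Elk4 in 8.36%. Those of Etv3, Elk1 and Etv6 were higher than in 91.0%, 93.2% and 94.5%.

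Per kilobase of annotated exon, Elf1 stood apart in both genotypes, at 41.0 ± 6.82 CPM per kilobase in p52Ki and 41.8 ± 6.16 in WT. In p52Ki it was followed by Elf4 (13.1), Gabpa (11.6), Elk4 (11.4), Elf2 (9.59), Elk3 (7.60), Etv3 (4.08), Etv6 (3.89) and Elk1 (2.24 CPM per kilobase), and each of these overlapped the next in its range over libraries. In WT the order after Elf1 was Gabpa (12.9), Elf2 (12.3), Elf4 (9.80), Elk3 (8.34), Elk4 (6.46), Etv3 (3.44), Etv6 (2.49) and Elk1 (1.44 CPM per kilobase), and the ranges overlapped except between Elf2 and Elf4. Elk4 was thus the fourth of the 9 in p52Ki and the sixth in WT. With the length of the longest transcript in place of all annotated exons, Elf1 stayed the highest and Etv3, Etv6 and Elk1 the lowest 3 in both genotypes, and the order in between changed. The 9 together summed to 105 ± 12.8 CPM per kilobase in p52Ki and 98.9 ± 4.93 in WT.

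Exons of some members overlap other genes, and reads there cannot be told apart without strand. Cdk17 overlaps 6.95% of the exon bases of Elk3, Atp5j 6.98% of Gabpa and Wbp4 4.85% of Elf1, each on the other strand. For Elk4 the overlaps were 1.31% with Mfsd4a and 1.62% with Gm29103, and Elf4 and Etv3 had none.

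Of 18 other ETS genes, all in the count table, 8 passed the filter on low counts, and 2 of these rose in p52Ki. Etv5, an ETS factor induced by growth factor signalling, stood at 26.1, 11.3, 24.9, 17.9 and 17.8 CPM in p52Ki replicates 1 to 5, against 0, 3.87, 2.99 and 0.266 CPM in WT replicates 1 to 4. The genotypes did not overlap, with 597 counts in all p52Ki libraries and 51 in WT. Etv5 rose by 3.45 ± 0.95 on the log2 scale (edgeR adjusted p = 0.0448), a call that needed WT replicates 3 and 4 and each of the 5 p52Ki libraries. Spib, an ETS factor of B cells, had 526.4 CPM per kilobase in p52Ki and 338 in WT (log2 fold change 0.64 ± 0.15, edgeR adjusted p = 0.0230, a call that needed WT replicates 3 and 4 and p52Ki replicates 1 and 3). Ets1 stood at 139 and 106, Spi1 at 59.5 and 65.2 and Fli1 at 49.6 and 39.0 CPM per kilobase in p52Ki and WT, all without passing, and none of the 9 factors described above averaged as high as Spi1.

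The 3 genes whose pattern over the 9 libraries was most like that of Elk4, by the root mean square difference of centred log2 CPM among 7945 genes, were Vps72, Nudt3 and Cbfa2t3 (0.118, 0.131 and 0.136). Vps72, which encodes a histone chaperone of H2A.Z, stood at 77.5 to 94.7 CPM in p52Ki and 42.9 to 57.6 CPM in WT, without overlap. Nudt3 ranged from 56.9 to 84.8 CPM in p52Ki and from 33.2 to 55.7 CPM in WT. Cbfa2t3, a corepressor gene, ranged from 54.7 to 96.5 CPM in p52Ki and from 31.6 to 54.8 CPM in WT, with p52Ki replicate 4 level with WT replicate 2. These genes were picked for likeness to a gene that differs between genotypes, so their own difference is no separate finding.

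Genes that work with these factors were listed by role. The lists were chosen with earlier results of these data known, so the counts below are no separate test of these roles. They stand beside 8.53% of all genes called (4.49% higher, 4.04% lower) and a median log2 fold change of 0.03 over all genes tested. In the partner and relay lists, 1 gene in 9 and 1 in 14, the share called was near that background. Of 9 direct partners tested, 1 fell. Sin3a, the scaffold of a histone deacetylase complex that repressors of the family recruit, stood at 72.7 ± 13.2 CPM in p52Ki and 136 ± 36.1 CPM in WT, a log2 fold change of -0.91 ± 0.21 (edgeR adjusted p = 0.0230, a call that needed WT replicates 1 and 3 and p52Ki replicates 2 and 5). Srf, the partner of the ELK factors, stood at 15.1 ± 6.95 and 20.4 ± 4.76 CPM (log2 fold change -0.44, edgeR adjusted p = 0.591). Mrtfa, a rival cofactor of SRF, stood at 57.7 ± 12.1 and 72.3 ± 7.12 CPM (log2 fold change -0.32, edgeR adjusted p = 0.401). The median log2 fold change of the partners was -0.15.

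Of 14 genes of the relay from RAS to ERK, 1 fell, and the median was 0.28. Rasgrp3, an exchange factor that loads RAS after B cell receptor signalling, stood at 211 ± 56.7 CPM in p52Ki and 360 ± 31.9 CPM in WT (log2 fold change -0.77 ± 0.18, edgeR adjusted p = 0.0243). Its relative Rasgrp1 stood at 265 ± 69.4 and 160 ± 35.9 CPM, a log2 fold change of 0.73 ± 0.22 that did not pass (edgeR adjusted p = 0.0689). Its genotypes did not overlap, as in that direction for 7.3% of all genes tested. Those of Map2k1 did not overlap in the opposite direction (log2 fold change -0.43 ± 0.15, edgeR adjusted p = 0.102), and it did not pass. Rasgrp3 was no longer called when any of WT replicates 1, 3 and 4 or p52Ki replicates 1, 3 and 5 was left out.

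Of 7 feedback genes that ERK signalling induces, 2 rose, and the list's median log2 fold change was 1.5. Dusp6, a phosphatase that inactivates ERK, stood at 386, 351, 473, 267 and 412 CPM in p52Ki replicates 1 to 5, against 50.4, 153, 86.2 and 131 CPM in WT replicates 1 to 4. All p52Ki libraries lay above all WT libraries, with a log2 fold change of 1.84 ± 0.30 (edgeR adjusted p = 0.00456). Dusp5, a nuclear ERK phosphatase, rose by 2.43 ± 0.51 on the log2 scale (edgeR adjusted p = 0.0152). Neither call held with the replicate number as a block (edgeR adjusted p = 0.0557 for Dusp6 and 0.0608 for Dusp5). Spry2, which restrains the same relay, had 115 counts over all p52Ki libraries and 14 over WT and was not called (log2 fold change 2.97 ± 1.08, edgeR adjusted p = 0.123). Dusp4, another nuclear phosphatase, differed by -1.32 ± 0.73 (edgeR adjusted p = 0.330).

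Of 13 early response genes known as SRF and ELK targets, 6 rose (median 0.90), beside 4.49% of all genes tested. This list too was chosen with earlier results of these data known, and its genes are known to answer to other inputs as well. Ier2 stood at 174 ± 25.5 CPM in p52Ki and 67.5 ± 5.24 CPM in WT, Fosb at 92.4 ± 13.9 and 34.1 ± 7.23 CPM, and Egr1 at 123 ± 36.5 and 47.1 ± 20.7 CPM (edgeR adjusted p = 0.00141, 0.00351 and 0.0198). Zfp36, Junb and Btg2 rose by 0.94 ± 0.14, 1.10 ± 0.19 and 0.90 ± 0.21. Egr1 was not called when WT replicate 1, WT replicate 3 or p52Ki replicate 3 was left out, nor Btg2 when WT replicate 2 was. Fos, the highest of the list in CPM, stood at 794 ± 98.2 CPM in p52Ki and 639 ± 61.8 CPM in WT. It did not pass (log2 fold change 0.31 ± 0.13, edgeR adjusted p = 0.169). Egr2 had a log2 fold change of -0.59 ± 0.35 and Mcl1 one of 0.54 ± 0.21, and neither passed (edgeR adjusted p = 0.367 and 0.150).

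Of 11 genes known to be bound or regulated by GABP, 1 rose and 1 fell (median 0.02). Il7r, the interleukin 7 receptor chain, had 284 counts in p52Ki and 2 in WT, both in replicate 4, a ratio of 140 in CPM with an exact 95% interval of 38.3 to 1160 that covers counting error only. Itgb2, an integrin chain, stood at 236 ± 37.9 and 361 ± 69.6 CPM (log2 fold change -0.61 ± 0.17, edgeR adjusted p = 0.0466), and kept its call in 4 of 18 alternatives. The mitochondrial genes Tfb2m and Cox4i1 had log2 fold changes of 1.29 ± 0.39 and -0.16 ± 0.22, which did not pass (edgeR adjusted p = 0.0638 and 0.762). Nor did Skp2, with a log2 fold change of -1.27 ± 0.38 (edgeR adjusted p = 0.0615). Of 9 genes reported as ELF or ETV6 targets, 2 rose (median 0.54). Klf2 and Klf4, quiescence factors that ELF4 activates in mouse T cells, stood at 74.8 ± 21.1 and 62.1 ± 28.5 CPM in p52Ki against 14.8 ± 4.66 and 7.49 ± 5.43 CPM in WT (log2 fold changes 2.34 ± 0.32 and 3.05 ± 0.57, edgeR adjusted p = 0.00263 and 0.00923). Klf2 is also one of the 6 follicular B cell markers above.

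**Figure D5:**
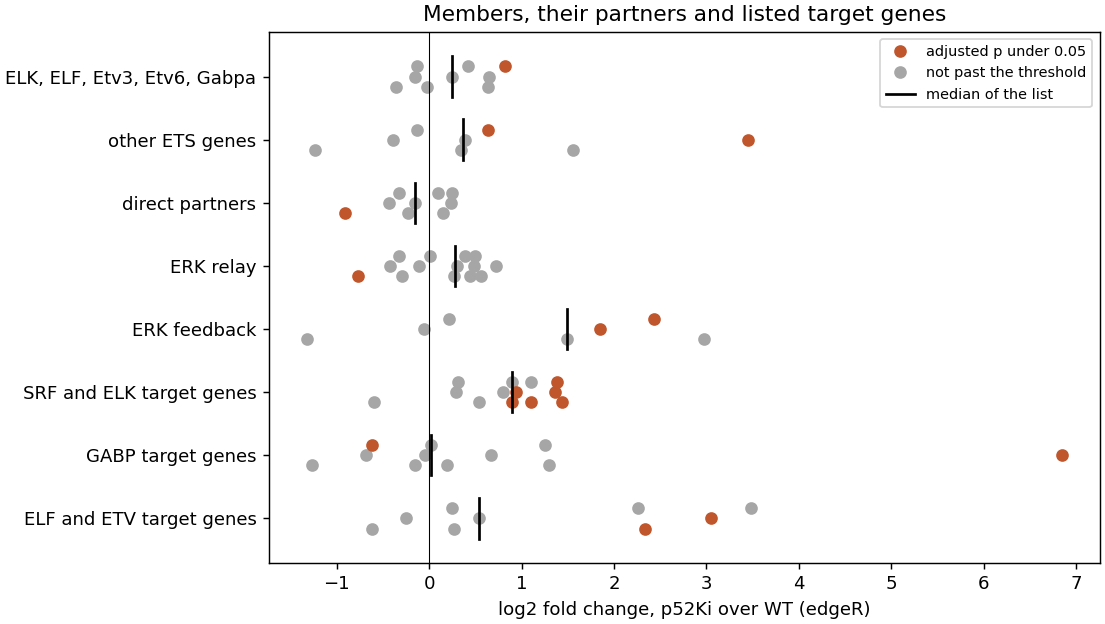
Log2 fold change, p52Ki over WT (horizontal axis), of each tested gene in the 9 ETS factors, the other ETS genes and 6 lists of partners, ERK pathway genes and listed targets. Orange points passed the threshold and black lines are list medians, which run from -0.15 for the direct partners to 1.5 for the ERK feedback genes. Of these 7 feedback genes 2 were called.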

How the data were processed

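RNA-seq covered 5 p52Ki and 4 WT libraries. Per the labels' protocols, SMART-Seq v2 cDNA was made into paired-end Nextera XT libraries, which mark neither strand nor molecule, so counting intervals cover counting error only. Per the submitters' processing notes, the build was GRCm38 and the tools were featureCounts (Subread 1.6.2), HISAT2 2.1.0 and SAMtools 1.8. No source used here gives the annotation release or the strand setting. The authors deposited raw counts for 55536 genes and log2 CPM for 12849, and the deposited log2 values equalled edgeR's TMM-scaled log CPM of those counts with a prior count of 2 (largest difference 4.97e-14).

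Counts were tested in R 4.3.3 with edgeR 4.0.16 (filterByExpr, TMM, robust quasi-likelihood F test, no covariate) over all 9 libraries, with Benjamini-Hochberg adjustment over 12849 genes. Each SE was taken from the log2 fold change and its F statistic. Ratios of 2 members used counts plus 0.5 and exact permutation over 126 splits. Positions and exon lengths are from GENCODE M21 (GRCm38), which holds all 55536 identifiers. The edgeR test was checked on simulated counts, and the exact permutation and its adjustment on known values. Alternatives were DESeq2 1.42.0, its size factors in edgeR, limma 3.58.1 (voom, and trend on the deposited log2 values), other filters, leaving out immunoglobulin and T cell receptor genes, a GC and length correction, the replicate block and each library left out.

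The members, lists and pairs were chosen with earlier results of these data known. Named were the 9 factors, up to 6 called genes of smallest p in each list (else the 2 of smallest p) and the 3 genes most like Elk4. Other listed genes named were chosen after their values were seen.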

Additional observations from a re-analysis of the deposited data

Results flagged for a closer look

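Of 70 groups of values checked for a library far from its group, 3 had one, where chance gives about 1 in 20. Dusp5 stood at 56.8 CPM in p52Ki replicate 2, against 21.5 to 30.8 CPM in the other p52Ki libraries. Klf2 stood at 7.88 CPM in WT replicate 1, against 16.6 to 18.1 CPM in the other WT libraries. Il7r stood at 0.266 CPM in WT replicate 4 and had no count in the other 3 WT libraries. None of the 9 ETS factors and none of the 7 ratios was among them.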

How the results depend on the processing

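Of the 9 ETS factors, the 8 that did not pass stayed below the threshold in each alternative that tested them (Elk1 was not tested at 10 CPM in 4 libraries). Elk4 was called in 11 of 18 alternatives and stayed positive in all 18. Over all genes, 1096 were called, 1766 with DESeq2 and between 625 and 1108 with 1 library left out, and the number of ETS factors called then ran from 0 to 1. With the replicate number of the titles as a replicate block, 129 genes and 0 ETS factors were called (Elk4 adjusted p = 0.145). Among the called genes of the other lists, markers aside, Egr1, Fosb, Ier2, Junb, Zfp36 and Klf2 kept their call in that fit. Etv5, Spib, Sin3a, Rasgrp3, Dusp5, Dusp6, Btg2, Itgb2, Il7r and Klf4 lost theirs. Whether the numbers pair the libraries is not stated in the labels. Deviations of same-numbered libraries correlated between -0.042 and -0.009 over genes, and those of other pairs between -0.0472 and 0.0734. Same-numbered libraries were thus no more alike than others, which cannot exclude a pairing. The main calls treat the libraries as unpaired. Of the 7 within-library ratios 2 were called, also with a pseudocount of 5, and between 0 and 3 with 1 library left out, where fewer splits raise the smallest p. Elk1 and Etv6 had 0 and 3 counts in WT replicate 1, the library with the highest total, and 181 and 190 in WT replicate 2.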
